A study of Arabidopsis thaliana with 12 samples.

Results

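Long noncoding RNA (lncRNA) genes were followed for histone H3 lysine 27 trimethylation (H3K27me3) in *Arabidopsis thaliana*. They were taken as every gene on chromosomes 1 to 5 whose biotype in the RefSeq annotation of TAIR10.1 is lncRNA, which gave 3480 of 37899 annotated genes. The lncRNA genes were short, with a median length of 343 bp and a range of 200 to 9515 bp, and 2942 of them had 1 exon. Reads were counted over the gene, and the 3162 lncRNA genes shorter than 1000 bp were widened to that length. By position, 1421 overlapped a protein-coding gene and 2059 did not. Among the overlapping ones, 1263 lay only antisense to a coding gene, 61 only on the same strand and 97 on both. The window counted for 426 of the 2059 still reached into a coding gene because of the widening.

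H3K27me3 is set by Polycomb repressive complex 2 (PRC2), in which CURLY LEAF (CLF) is the main methyltransferase of vegetative tissue, and it marks silent genes. BRAHMA (BRM) is the ATPase of a SWI/SNF chromatin remodeling complex, a class of proteins that counteracts Polycomb silencing. Some plant lncRNAs are known to act in this pathway, and antisense and intronic transcripts of the flowering repressor gene *FLC* take part in its silencing by cold. ChIP-seq reads come from both DNA strands, so a lncRNA gene and the coding gene it overlaps share their reads and cannot be told apart.

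ChIP-seq with an antibody against H3K27me3 was carried out on 14-day-old seedlings of the wild type Col, of the T-DNA null mutant *brm-1* (SALK_030046), of the T-DNA mutant *clf-29* (SALK_021003) and of the double mutant made from both, *brm-1 clf-29*, with Col as the background of every mutant. There were 2 ChIP libraries and 1 input library for each genotype. The question was where the mark depends on BRM, on CLF and on both. Each mutant is a single insertion allele, and whole seedlings were used, so fewer cells carrying the mark and less of the mark per cell cannot be told apart.

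The ChIP libraries held 2112103 to 3654258 unique reads (1 read kept per position and strand) and the inputs 3421391 to 4291138. Levels are given in RPM (unique reads in a gene's window per 1000000 unique reads of the library), which measure the distribution of the mark in a library and not its total amount. Of the unique reads of the Col ChIP libraries, 59.2% and 59.3% fell in the Col regions, against 71.4% and 74.2% in *brm-1*, 75.8% and 76.6% in *clf-29* and 75.1% and 76.1% in *brm-1 clf-29*. In the inputs the share was 16.3% to 16.9%. Genes without the mark had a lower RPM in the 3 mutants than in Col: the median lncRNA gene in no region had 3.01 and 2.98 RPM in the Col libraries, but 1.67 and 1.13 RPM in the *brm-1* libraries. Changes are therefore reported first for lncRNA genes in H3K27me3 regions. Reads over *BRM* and *CLF* do not check the insertions, because the genes remain in the genome.

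Promoter sequences are shown for 4 lncRNA genes on which the results below turn, a gain in *brm-1*, losses without CLF and a loss in the double mutant, and whose stretch reaches no coding gene. Each runs from 250 bases before to 50 bases after the annotated start, 5′ to 3′ on the strand of the gene, read from TAIR10.1. GAGAGA, the GAGA-type motif, and AAACCCTA, the telo-box, are known in *Arabidopsis* as elements bound by factors that recruit PRC2. Both were searched on both strands with overlapping matches counted, and matches are in capitals. AT3G01835 lies at chr3:1966807-1967106 on the minus strand and AT3G04395 at chr3:8232677-8232976 on the plus strand. AT1G08923 lies at chr1:25173895-25174194 and AT1G08517 at chr1:23067797-23068096, both on the plus strand.
AT3G01835: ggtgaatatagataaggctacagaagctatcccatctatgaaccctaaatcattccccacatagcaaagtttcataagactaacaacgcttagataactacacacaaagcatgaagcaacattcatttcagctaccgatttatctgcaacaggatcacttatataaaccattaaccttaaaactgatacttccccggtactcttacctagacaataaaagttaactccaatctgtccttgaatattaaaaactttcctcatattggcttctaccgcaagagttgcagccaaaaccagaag
AT3G04395: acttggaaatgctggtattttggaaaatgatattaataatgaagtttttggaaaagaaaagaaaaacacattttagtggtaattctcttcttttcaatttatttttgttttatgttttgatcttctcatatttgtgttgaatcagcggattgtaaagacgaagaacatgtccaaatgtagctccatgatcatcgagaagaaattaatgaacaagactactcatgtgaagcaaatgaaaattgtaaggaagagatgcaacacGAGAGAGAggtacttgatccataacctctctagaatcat
AT1G08923: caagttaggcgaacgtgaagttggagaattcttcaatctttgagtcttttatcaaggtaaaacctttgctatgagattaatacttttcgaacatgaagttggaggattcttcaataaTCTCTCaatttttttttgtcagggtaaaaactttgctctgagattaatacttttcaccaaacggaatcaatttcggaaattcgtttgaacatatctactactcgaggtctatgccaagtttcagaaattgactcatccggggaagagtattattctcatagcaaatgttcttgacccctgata
AT1G08517: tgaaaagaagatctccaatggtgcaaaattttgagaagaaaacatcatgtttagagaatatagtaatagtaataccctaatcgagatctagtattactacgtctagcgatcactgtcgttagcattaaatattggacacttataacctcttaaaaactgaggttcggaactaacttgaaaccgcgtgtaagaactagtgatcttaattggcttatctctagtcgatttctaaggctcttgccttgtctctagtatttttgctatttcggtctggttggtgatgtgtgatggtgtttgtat
GAGAGA was found once in the stretch of AT1G08923 and 2 times, overlapping, in that of AT3G04395. Neither motif was found in the stretches of AT3G01835 and AT1G08517. Over stretches of the same length, GAGAGA occurred at 26.1% of 3479 lncRNA genes, at 29.2% of 27443 coding genes and at 28.5% of all 37897 genes with a complete stretch. AAACCCTA occurred at 4.37% of lncRNA genes, at 6.22% of coding genes and at 6.17% of all genes. Among lncRNA genes in Col regions the shares were 25.5% for GAGAGA and 5.27% for AAACCCTA, and among those outside Col regions they were 26.2% and 4.08%. The share of lncRNA promoters with GAGAGA was therefore nearly the same inside and outside the mark.

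To find which lncRNA genes carried H3K27me3, regions enriched over the input of the same genotype were called in each library, and a gene was counted as marked where a region found in both replicates touched it. In Col, 854 of the 3480 lncRNA genes (24.5%) were marked, close to the 25.4% of 27444 coding genes. The count was 946 (27.2%) in *brm-1*, 695 (19.97%) in *clf-29* and 754 (21.7%) in *brm-1 clf-29*. Over all 37899 annotated genes the genotypes had the same order. The shares were 23.1% in Col, 24.5% in *brm-1*, 21.5% in *clf-29* and 22.8% in *brm-1 clf-29*. Most marked lncRNA genes were covered from end to end: 693 of the 854 in Col. Marked lncRNA genes had a median of 24.9 and 24.5 RPM in the Col libraries against 8.18 RPM in the Col input.

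The mark was unevenly spread between the classes of lncRNA genes. Of those that overlap no coding gene, 700 of 2059 (34.0%) were marked in Col, against 154 of 1421 (10.8%) of those that overlap one. The first share was near that of the 4377 coding genes under 1 kb, of which 1566 (35.8%) were marked. The order of the genotypes was the same in both classes, as the bar chart of marked shares shows. For lncRNA genes that overlap no coding gene the shares were 38.0% in *brm-1*, 27.1% in *clf-29* and 29.2% in *brm-1 clf-29*, and for those that overlap one they were 11.5%, 9.71% and 10.7%. When only the 1633 lncRNA genes whose window touched no coding gene were considered, the share in Col was 34.5%. These shares are counts over genes from 2 libraries per genotype, and the differences between classes were not tested.

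**Figure D1:**
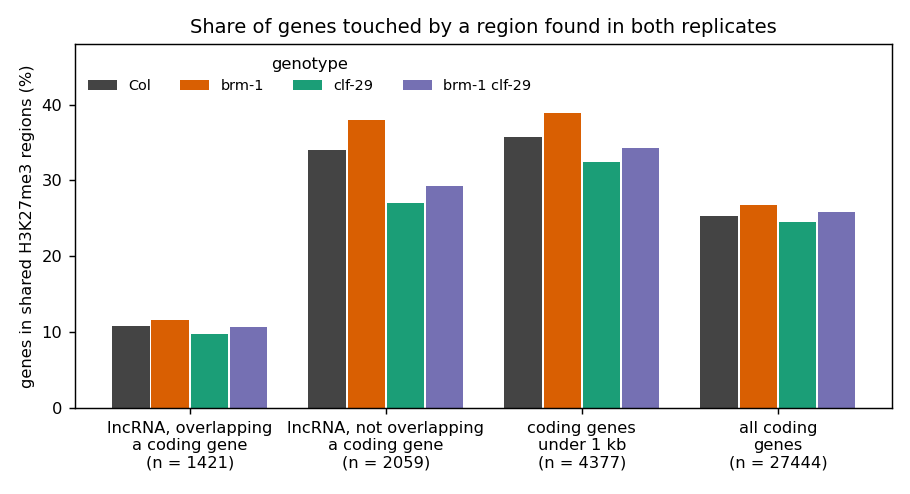
Percentage of genes touched by an H3K27me3 region found in both replicates, by gene class (horizontal axis) and genotype (bar color). In Col 34.0% of lncRNA genes that overlap no coding gene were marked against 10.8% of those that overlap one, and in both lncRNA classes *brm-1* had the highest bar and *clf-29* the lowest.

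The state of a lncRNA gene was compared with that of its coding partner, with which an overlapping gene shares bases and reads. Among the 1421 overlapping lncRNA genes, 144 were marked in Col together with the coding gene (where several overlapped, the first in the annotation), 1222 pairs were both unmarked, 45 had the mark on the coding gene alone and 10 on the lncRNA gene alone. Among the 2059 that overlap none, 476 were marked together with the nearest coding gene, 1092 pairs were both unmarked, 267 had the mark on the coding gene alone and 224 on the lncRNA gene alone. Distance to the coding gene made little difference up to 5 kb. The share marked in Col was 31.4% of 711 genes within 500 bp, 37.5% of the next 526 genes up to 1000 bp, 35.4% of 432 genes up to 2000 bp and 37.3% of 271 genes up to 5000 bp. It was 21.8% of the 119 genes farther away. In the farthest group 26 genes were marked in Col and 14 in *clf-29*. By chromosome, the share of all lncRNA genes marked in Col was 20.9% on chromosome 2 and 24.9% to 25.6% on the others.

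**Figure D2:**
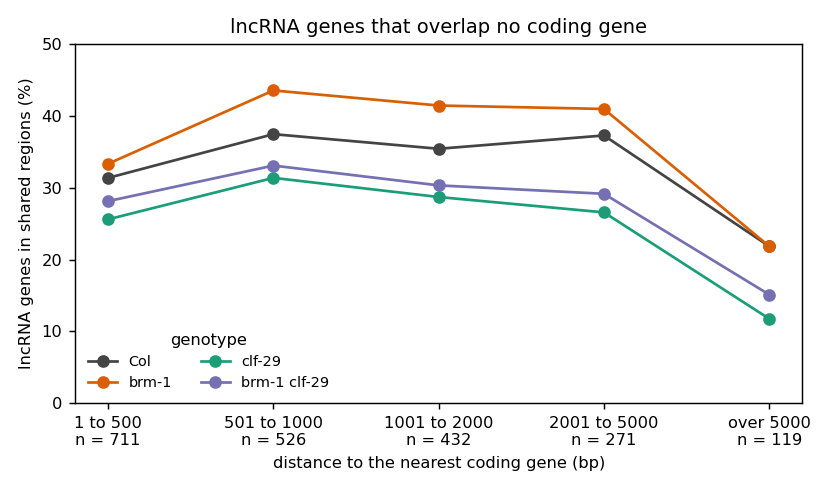
Percentage of the 2059 lncRNA genes that overlap no coding gene which were marked in each genotype (line color), by distance to the nearest coding gene in bp (horizontal axis, n genes per group). The Col share lies between 31.4% and 37.5% up to 5000 bp and at 21.8% beyond, and *clf-29* is lowest at every distance.

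Of the 5701 Col regions, 650 touched a lncRNA gene, and 134 of these touched no coding gene. These 134 regions had a median length of 2000 bp, compared with 5600 bp for regions that touched both kinds of gene. Up to 5 lncRNA genes lay in a single Col region, and 157 regions held more than 1. One of the regions with 5, on chromosome 1 from 11495401 to 11503000, held AT1G06493, AT1G06497, AT1G06507, AT1G06513 and AT1G06517 and no coding gene; it is named here because of that, after its values were seen. AT1G06517 had 46.8 and 40.7 RPM in Col, 49.0 and 53.7 in *brm-1*, 20.4 and 17.0 in *clf-29* and 24.4 and 23.0 in *brm-1 clf-29*. For each of the 5 genes, both *clf-29* libraries were below both Col libraries. Windows of 733 lncRNA genes shared bases with the window of another lncRNA gene, so neighbouring genes such as these are not independent measurements. In the other Col regions with 5 lncRNA genes, the *clf-29* and Col libraries overlapped at some genes. AT1G05593 had 33.4 and 33.4 RPM in Col and 27.7 and 34.6 in *clf-29*. AT4G06460 had 24.6 and 21.2 RPM in Col and 19.3 and 21.8 in *clf-29*. The share of all genes whose *clf-29* libraries were below both Col libraries was not computed.

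Across the 4 genotypes, 1034 lncRNA genes were marked in at least 1, and 585 of these in all 4. The next largest group, 137 genes, was marked in Col and *brm-1* but in neither genotype without CLF, and 75 genes were marked in *brm-1* alone. The 137 genes made up 16.0% of the lncRNA genes marked in Col. For coding genes under 1 kb the corresponding share was 10.9% (171 genes), and for all coding genes it was 6.68% (465 genes). The 137 genes had median levels of 17.8 and 18.9 RPM in Col, 20.03 and 20.7 in *brm-1*, 7.32 and 7.10 in *clf-29* and 8.12 and 8.30 in *brm-1 clf-29*, with inputs of 7.92 to 8.20 RPM. In the genotypes without CLF the median was near that of the input. The group was chosen by these regions, so its levels are a description, and the difference in share from coding genes was not tested.

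The levels were then compared between genotypes with limma, fitted to log2(RPM + 1) of all 32062 genes with at least 10 unique reads in at least 2 ChIP libraries. Of the lncRNA genes, 2134 were tested (615 overlapping, 1519 not), and 1346 had too few reads. A call needed a difference of more than 2-fold and an adjusted p (Benjamini-Hochberg, over all genes tested) under 0.05, and "lower" and "higher" below stand for calls. All p-values measure the spread between 2 biological samples per genotype. Over all genes tested, the median log2 fold change of RPM was -0.75 in *brm-1* and -0.74 in *clf-29* relative to Col. In contrast, it was 0.08 for *brm-1 clf-29* against *brm-1* and -0.05 for *brm-1 clf-29* against *clf-29*. With median-of-ratios size factors the medians against Col were -0.01 and -0.09, and with TMM factors computed over marked genes they were -0.96 and -0.99, so calls against Col are relative to the scaling used. Of the lncRNA genes tested, 1033 were in a region of at least 1 genotype, 193 of them overlapping a coding gene and 840 not. A gene can pass the read filter, and count as marked, through the genotype in which it is high, so the balance of higher and lower calls among marked genes is a description.

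Without CLF, calls among marked lncRNA genes were more often losses than gains in RPM, a balance that turned under another scaling. In *clf-29* against Col, 174 of the 1033 marked lncRNA genes were lower and 78 were higher. Over all marked genes tested, 10.4% were lower and 14.2% were higher. For marked lncRNA genes these shares were 16.8% and 7.55%, and for marked coding genes under 1 kb they were 11.9% and 18.1%. The balance lay with the genes that overlap no coding gene, where 149 of 840 were lower and 49 higher, whereas 25 of the 193 overlapping ones were lower and 29 higher. The median log2 fold change was -0.12 for the first class and 0.27 for the second, compared with 0.35 for marked coding genes. Counting unmarked genes as well, 519 of 2134 lncRNA genes were lower and 82 higher (33.5% and 4.63% of all genes tested). With median-of-ratios size factors, 44 marked lncRNA genes were lower and 373 higher, and with the TMM factors 260 were lower and 18 higher.

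The 3 losses named by size were on chromosome 3. AT3G04385 (8232927 to 8233189, minus strand) and AT3G04395 (8232927 to 8233323, plus strand) overlap each other and share nearly all their reads, and the nearest coding gene, AT3G23122, starts 1072 bp and 938 bp away. AT3G04385 had 23.5 and 28.1 RPM in Col, 28.1 and 29.3 in *brm-1*, 1.54 and 2.84 in *clf-29* and 4.47 and 4.79 in *brm-1 clf-29*. Without CLF, all 4 libraries were below the inputs of 7.29 to 8.73 RPM, and the *clf-29* values rest on 4 and 6 unique reads. The log2 fold change in *clf-29* was -3.10 (SE 0.29, adjusted p = 8.2e-09), and for AT3G04395 it was -3.08 (SE 0.29, adjusted p = 1.1e-08). AT3G23122, itself marked in Col, fell by 2.92 on the log2 scale (adjusted p = 2.1e-06), on 1 unique read in each *clf-29* library. AT3G05925 (11487212 to 11487529, minus strand), 6022 bp from a coding gene, had 27.6 and 23.8 RPM in Col and 4.24 and 0.947 in *clf-29* (log2 fold change -3.06, SE 0.37, adjusted p = 4.7e-07). Its nearest coding gene, AT3G29645, was unmarked in every genotype.

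At other lncRNA genes the level was higher in *clf-29*. AT2G09605 (chromosome 2, 18698747 to 18699174, minus strand), annotated as an antisense transcript of AT2G45360, had 42.4 and 33.4 RPM in Col, 52.3 and 52.6 in *brm-1*, 110 and 100 in *clf-29* and 96.2 and 96.1 in *brm-1 clf-29*. The *clf-29* libraries were above both *brm-1* libraries, while lying above both Col libraries was a condition for naming the gene. The log2 fold change against Col was 1.45 (SE 0.13, adjusted p = 5.2e-09). AT2G45360, which shares these reads, changed by 1.43. AT1G06002 (chromosome 1, 1820254 to 1821887, plus strand) lies antisense over nearly the whole of AT1G06000, which encodes a flavonol rhamnosyltransferase. Its level was 5.75 and 7.29 RPM in Col, below the Col input of 12.9, and 24.3 and 24.1 RPM in *clf-29*, above the input of 8.99 (log2 fold change 1.75, SE 0.23, adjusted p = 1.7e-06). A region was found there only in the 2 genotypes without CLF. AT3G01975 (chromosome 3, 2350128 to 2350521, plus strand), 1337 bp from AT3G07350, went from 10.9 and 12.9 RPM to 33.1 and 35.0 (log2 fold change 1.44, SE 0.21, adjusted p = 4.9e-06). AT3G07350 rose with it, by a log2 fold change of 1.67.

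The same question was asked in the *brm-1* background. The fold changes there rest on 4 libraries, none of which entered the fold changes of the first comparison. The spread behind the calls was estimated from all ChIP libraries together, and genes counted as marked through a region of any genotype. The calls of both comparisons are therefore not independent. In the double mutant compared with *brm-1*, 194 of the 1033 marked lncRNA genes were lower and 23 were higher. Over all marked genes tested, 10.6% were lower and 2.91% higher, and for marked lncRNA genes the shares were 18.8% and 2.23%. Of the 194, 171 overlapped no coding gene, compared with 840 of the 1033 marked lncRNA genes tested. The count of lower genes was 173 to 207 when any ChIP library was left out, 217 with median-of-ratios factors and 219 with TMM. Without *brm-1* replicate 1 the 23 higher genes became 38. With unmarked genes included, 287 lncRNA genes were lower and 25 higher (5.18% and 1.39% of all genes tested).

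Most losses were called in both backgrounds. Of the 174 marked lncRNA genes called lower in *clf-29* against Col, 143 (82.2%) were also called lower in the double mutant against *brm-1*, which is 73.7% of the 194. Their median log2 fold changes were -1.44 and -1.49, and 172 of the 174 were below 0 in the second comparison. Of the 78 called higher in *clf-29*, 12 were also called higher in the double mutant against *brm-1*, and all 78 were above 0 there. The matching shares over all marked genes were not computed, so this overlap is not shown to be particular to lncRNA genes. The fold changes of the 2 comparisons share no library. Their calls share the estimate of the spread, from all ChIP libraries, and the set of marked genes. Calls made in both are therefore not independent.

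**Figure D3:**
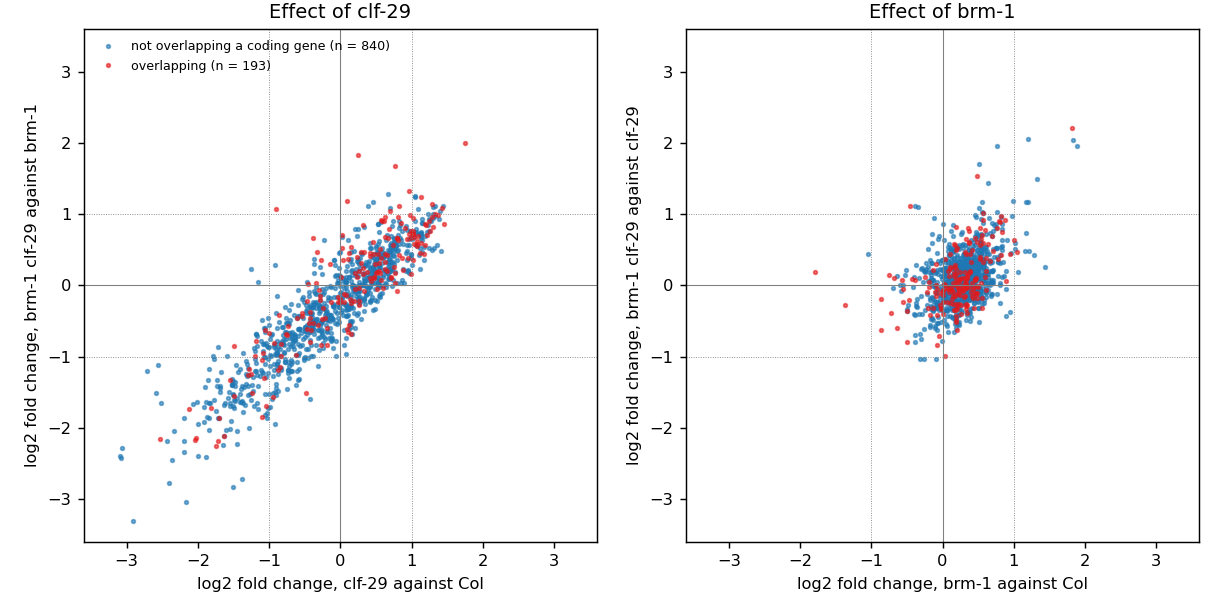
Log2 fold changes of the 1033 marked lncRNA genes tested, for the effect of *clf-29* (left: with BRM on the horizontal axis, without BRM on the vertical) and of *brm-1* (right: with CLF on the horizontal axis, without CLF on the vertical), with dotted lines at 2-fold. Each point is a gene, blue where it overlaps no coding gene (n = 840) and red where it overlaps one (n = 193). On the left 172 of the 174 genes called lower against Col lie below 0 on both axes, and on the right 17 genes were called higher and 3 lower on the horizontal axis.

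The largest losses in this background included AT1G08923 (chromosome 1, 25174145 to 25174393, plus strand), 1165 bp from *RTFL21*, a gene of the DEVIL family of small peptides. It had 24.6 and 20.5 RPM in Col, 20.3 and 19.2 in *brm-1*, 1.93 and 2.37 in *clf-29* and 1.22 and 0.958 in *brm-1 clf-29*. Each double mutant value rests on 3 unique reads, and the log2 fold change against *brm-1* was -3.31 (SE 0.33, adjusted p = 1.1e-07). AT5G03085 (chromosome 5, 6664186 to 6664456, plus strand) showed both effects. Its level was 12.6 and 11.6 RPM in Col, 25.9 and 26.7 in *brm-1*, 1.54 and 2.37 in *clf-29* and 3.25 and 1.60 in *brm-1 clf-29*. It was higher in *brm-1* than in Col by 1.06 (SE 0.34, adjusted p = 0.015), and the *brm-1 clf-29* level was lower than in *brm-1* by a log2 fold change of -3.04 (SE 0.34, adjusted p = 5.3e-07). Without CLF the change by *brm-1* was 0.18 (SE 0.34, adjusted p = 0.91), and the interaction of -0.88 (SE 0.48, adjusted p = 0.20) did not pass the test. AT2G08245 (chromosome 2, 12027275 to 12027767, plus strand), 1899 bp from *ACA2*, which encodes an alpha carbonic anhydrase, was marked only in *brm-1*. It had 25.6 and 26.7 RPM there and 2.44 and 3.19 in *brm-1 clf-29* (log2 fold change -2.84, SE 0.31, adjusted p = 3.1e-07). In Col it had 14.2 and 11.9 RPM, and the difference between *brm-1* and Col was 0.95, short of 2-fold. The coding genes nearest to these lncRNA genes were also lower in *brm-1 clf-29* than in *brm-1*. The log2 fold change was -1.49 for *RTFL21* (adjusted p = 0.00019) and -1.004 for *ACA2* (adjusted p = 5.4e-05). It was -2.39 for AT5G19710 (adjusted p = 5.8e-08), into which the widened window of AT5G03085 reaches.

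Gains in the double mutant over *brm-1* were few. The largest of those named was at AT1G06002, already described, with 8.62 and 8.64 RPM in *brm-1* and 37.3 and 37.7 in *brm-1 clf-29* (log2 fold change 2.00, SE 0.23, adjusted p = 7.8e-07). AT2G24545 (chromosome 2, 10425306 to 10427661, minus strand) lies antisense to AT2G24535 and *AFR*, which encodes an F-box protein of phytochrome A signaling. Its level was 10.9 and 10.3 RPM in Col, 9.18 and 6.01 in *brm-1*, 13.9 and 11.8 in *clf-29* and 29.6 and 28.4 in *brm-1 clf-29*. The double mutant libraries were above all others, though lying above *brm-1* was a condition for naming the gene. The log2 fold change against *brm-1* was 1.83 (SE 0.26, adjusted p = 8.6e-06). AT3G01055 (chromosome 3, 296024 to 296228, minus strand), antisense to AT3G01830, had 11.4 and 8.64 RPM in *brm-1* and 28.8 and 23.9 in *brm-1 clf-29* (log2 fold change 1.32, SE 0.24, adjusted p = 0.00019).

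The question for BRM was asked against Col in the same way. In *brm-1* against Col, 17 of the 1033 marked lncRNA genes were higher and 3 were lower (0.929% and 1.15% of all marked genes tested). For marked lncRNA genes the shares were 1.65% and 0.290%. The median log2 fold change was 0.28, compared with 0.24 for marked coding genes. The median of the 17 was 20.6 RPM in *brm-1* and 9.20 RPM in Col, and 14 of them were in a *brm-1* region and 7 in a Col region. Of the 17, 14 overlapped no coding gene, a share near that of all marked lncRNA genes tested (840 of 1033). For 4 of the 14 the nearest coding gene was called higher as well. The 17 became 10 without *brm-1* replicate 2 and 26 without *brm-1* replicate 1, while TMM gave 8 higher and 5 lower, and with median-of-ratios factors 737 were higher and 1 was lower. Fewer marked lncRNA genes were thus called for *brm-1* than for *clf-29* in RPM and with TMM, and more with median-of-ratios factors. Over all 2134 lncRNA genes tested, 21 were higher and 249 lower (0.346% and 38.5% of all genes tested), and 246 of the 249 were in no region. With median-of-ratios factors 869 were higher and 31 lower. The 249 became 81 without Col replicate 1, 54 without Col replicate 2 and 93 without *brm-1* replicate 2.

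The 2 largest named gains were neighbours on chromosome 3. AT3G01845 (1967314 to 1968086) and AT3G01835 (1966225 to 1966856), both on the minus strand, lie 202 bp and 1432 bp from AT3G06435, and their windows do not overlap. AT3G01845 had 14.8 and 18.2 RPM in Col, 56.7 and 71.0 in *brm-1*, 8.09 and 6.63 in *clf-29* and 38.2 and 25.5 in *brm-1 clf-29*, with inputs of 8.77 to 12.8 RPM. AT3G01835 had 16.4 and 16.9 RPM in Col, 54.0 and 71.4 in *brm-1*, 5.39 and 5.68 in *clf-29* and 27.2 and 24.9 in *brm-1 clf-29*. At both genes the libraries of the 4 genotypes did not overlap: *clf-29* was lowest, then Col, then the double mutant, and *brm-1* was highest. That *brm-1* lay above Col, and the double mutant above *clf-29*, was a condition for naming these genes. The log2 fold change in *brm-1* against Col was 1.89 (SE 0.22, adjusted p = 1.0e-05) and 1.84 (SE 0.21, adjusted p = 8.1e-06). AT3G06435 was also higher in *brm-1*, with 66.8 and 67.9 RPM in Col and 136 and 185 in *brm-1* (log2 fold change 1.22, adjusted p = 1.8e-06). AT5G08455 (chromosome 5, 22773003 to 22773204, plus strand) overlaps the 5′ end of *HAP8* in antisense orientation. It had 4.65 and 3.64 RPM in Col, below the input of 9.94, and 16.4 and 17.7 in *brm-1* (log2 fold change 1.81, SE 0.35, adjusted p = 0.00092). *HAP8* as a whole differed by 0.61, short of 2-fold.

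The 3 marked lncRNA genes lower in *brm-1* were at or below 16.4 RPM in Col. AT1G05333 (chromosome 1, 6131064 to 6135345, minus strand), which overlaps AT1G17810 and AT1G17820 and is named because there were only 3, had 16.4 and 11.3 RPM in Col and 4.45 and 2.25 in *brm-1*, all below the inputs (log2 fold change -1.79, SE 0.34, adjusted p = 0.00078). A region touched AT1G05333 in *brm-1 clf-29* alone, so it was unmarked in both genotypes compared. AT5G06855 (chromosome 5, 18891988 to 18892294, plus strand) was marked in Col alone, with 14.8 and 16.2 RPM there, 8.62 and 5.63 in *brm-1*, 4.24 and 8.05 in *clf-29* and 8.12 and 8.62 in *brm-1 clf-29*. Its log2 fold change was -1.04 (SE 0.32, adjusted p = 0.012), and the call was lost without either Col replicate and without *brm-1* replicate 2 (adjusted p = 0.062, 0.096 and 0.11). AT1G80325 (chromosome 1, 30194605 to 30198071, minus strand) runs across 5 coding genes from *NTT1* to *GA3OX4*. A region touched 2.05% of it, at the end it shares with *GA3OX4*, and its 12.0 and 11.9 RPM in Col were below the input of 24.6 RPM. In *brm-1* it had 3.89 and 4.13 RPM (log2 fold change -1.37, SE 0.29, adjusted p = 0.0017), and with median-of-ratios factors the difference was -0.57 (adjusted p = 0.11). These reads were below the input in every genotype.

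The effect of *brm-1* was also measured in the *clf-29* background. In *brm-1 clf-29* against *clf-29*, 13 of 1033 were higher and 1 was lower (0.764% and 0.155% of all marked genes tested). Of the 13, 2 were in a *clf-29* region and 11 in a double mutant region, so most counted as marked through the genotype in which they were higher. Over all lncRNA genes tested, 17 were higher and 2 lower (0.29% and 0.0624% of all genes tested). With TMM 13 were higher and 4 lower. The 13 became 8 without *clf-29* replicate 1 and 5 and 2 without *brm-1 clf-29* replicates 1 and 2. Among the 17 marked lncRNA genes called higher in *brm-1* against Col, 5 were also called higher here (29.4% of the 17 and 38.5% of the 13). All 17 were above 0, with a median log2 fold change of 0.63 compared with 1.20 against Col. The matching shares over all marked genes were not computed, so this overlap is not shown to be particular to lncRNA genes. Both comparisons share the estimate of the spread, so calls made in both are not independent. For AT3G01835 and AT3G01845 the log2 fold change without CLF was 2.05 (SE 0.21, adjusted p = 3.9e-06) and 1.95 (SE 0.22, adjusted p = 1.5e-05). The gain in *brm-1* at this locus was thus called in both backgrounds, with interactions of 0.21 (SE 0.30, adjusted p = 0.62) and 0.06 (SE 0.31, adjusted p = 0.90). AT1G04047 (chromosome 1, 270067 to 270517, plus strand), antisense to AT1G01725, had 7.70 and 6.16 RPM in *clf-29* and 21.5 and 22.0 in *brm-1 clf-29* (log2 fold change 1.53, SE 0.27, adjusted p = 0.0033). Its call was lost without *brm-1 clf-29* replicate 1 or 2 (adjusted p = 0.097 and 0.12). The loss was at AT1G08517 (chromosome 1, 23068047 to 23068354, plus strand), 3868 bp from AT1G62370, which is unmarked. It had 68.1 and 80.5 RPM in Col, 73.2 and 65.7 in *brm-1*, 69.3 and 72.9 in *clf-29* and 30.04 and 39.3 in *brm-1 clf-29* (log2 fold change against *clf-29* -1.03, SE 0.14, adjusted p = 0.00028). Its call fell below 2-fold without *clf-29* replicate 2 and without *brm-1 clf-29* replicate 1 (-0.99 and -0.84).

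**Figure D4:**
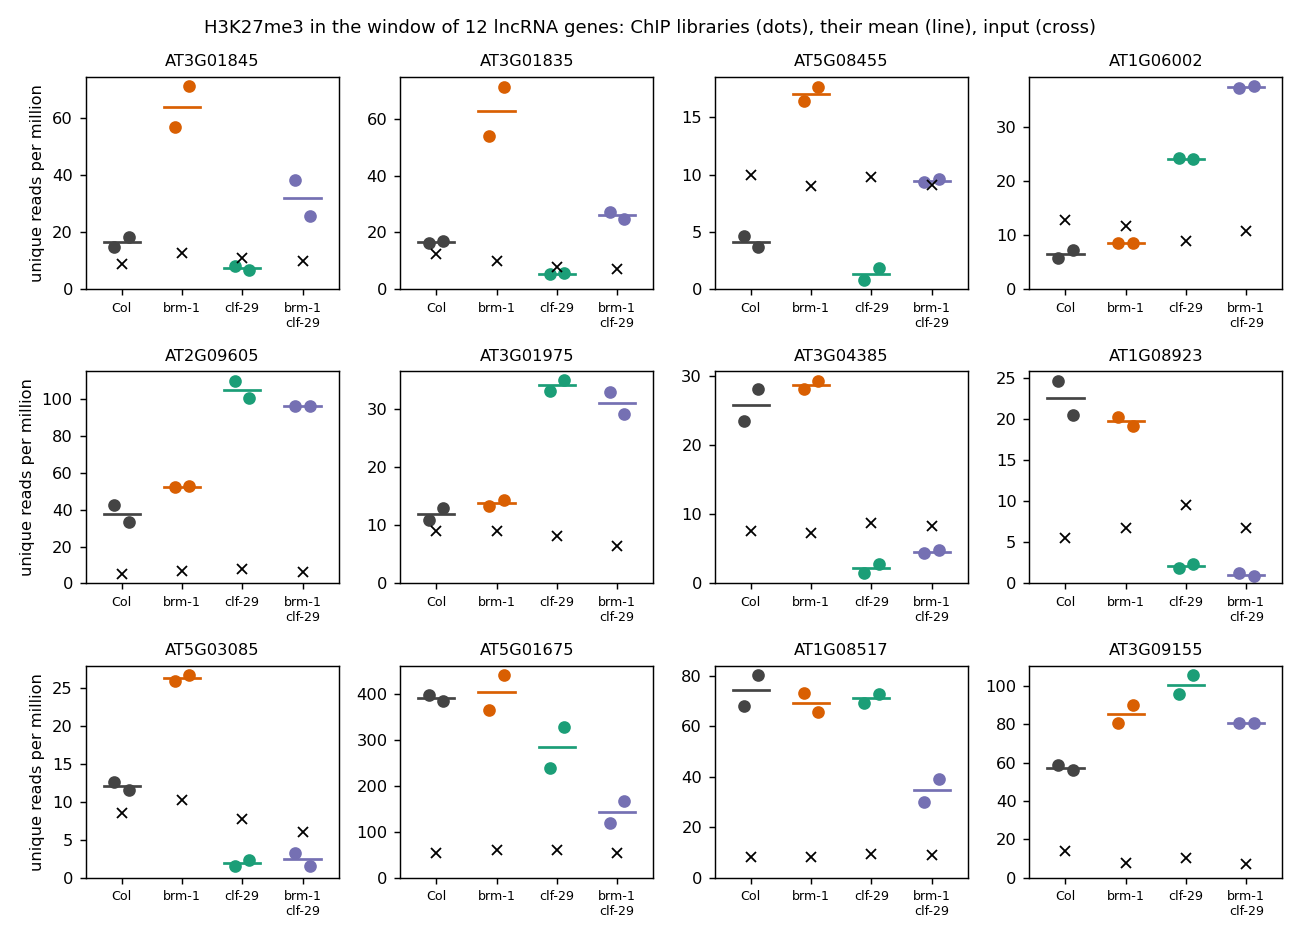
H3K27me3 in RPM (vertical axis, own scale per panel) in the windows of 12 lncRNA genes, by genotype, with each ChIP library as a dot, the mean of both as a line and the input as a cross. AT3G01845, AT3G01835 and AT5G08455 are highest in *brm-1*, AT1G06002, AT2G09605 and AT3G01975 are highest without CLF, AT3G04385, AT1G08923 and AT5G03085 are below the input without CLF, and AT5G01675 and AT1G08517 are lowest in the double mutant.

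Whether the effect of *brm-1* differed with and without CLF was tested with the interaction term. At an adjusted p under 0.05 it differed for 80 of the 2134 lncRNA genes tested, with 44 above 0 (a higher change by *brm-1* without CLF) and 36 below 0. Of all genes tested 10.2% passed, and of all marked genes 8.49%. Of the 80, 38 were in a region, and 35 of these were below 0. Over all genes tested, 2447 were above 0 and 831 below, of which 48 and 830 were in a region. The lean of marked genes to values below 0 was thus general. For lncRNA genes the direction turned with the scaling, with 14 above and 621 below 0 under median-of-ratios factors and 123 above and 6 below 0 under TMM. The counts also changed with single libraries: without *brm-1* replicate 2 or without *brm-1 clf-29* replicate 1 the count in limma was 0 (255 and 233 lncRNA genes at an unadjusted p under 0.05), without either Col replicate 1 passed, without *brm-1 clf-29* replicate 2 there were 2, without *clf-29* replicate 2 there were 33 and without *brm-1* replicate 1 there were 183.

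The lowest adjusted p belonged to AT5G01675 (chromosome 5, 3173371 to 3179600, plus strand), annotated as an antisense transcript that overlaps *FLC*. With 6230 bp it spans all of *FLC*, a MADS-box repressor of flowering, and its reads are almost the same ones. Its level was 400 and 386 RPM in Col, 366 and 443 in *brm-1*, 240 and 329 in *clf-29* and 119 and 168 in *brm-1 clf-29*, compared with inputs of 54.1 to 60.8 RPM. The double mutant libraries were below all others. The change by *brm-1* was 0.04 with CLF (SE 0.13, adjusted p = 0.81) and -0.99 without CLF (SE 0.13, adjusted p = 6.9e-05), and the difference was -1.02 (SE 0.18, adjusted p = 0.0082). *FLC* itself gave an interaction of -1.04 (SE 0.18, adjusted p = 0.0081). The share of AT5G01675 covered by a region was complete in Col and *brm-1*, 93.1% in *clf-29* and 73.8% in *brm-1 clf-29*. The interaction was lost without *brm-1* replicate 2 and without *brm-1 clf-29* replicate 1 (adjusted p = 0.059 and 0.084). In *clf-29* against Col its level differed by -0.48 (SE 0.13), short of 2-fold, and with median-of-ratios factors by 0.30.

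AT3G09155 (chromosome 3, 21739353 to 21739916, minus strand) lies antisense within *SHP1*, a MADS-box gene required for fruit opening. It had 58.8 and 56.0 RPM in Col, 80.4 and 89.8 in *brm-1*, 95.5 and 106 in *clf-29* and 80.4 and 80.5 in *brm-1 clf-29*. The change by *brm-1* was 0.56 with CLF and -0.32 without, a difference of -0.87 (SE 0.17, adjusted p = 0.012). For the whole of *SHP1* the difference was -0.44 (SE 0.14, adjusted p = 0.048). AT1G08517 had the third lowest adjusted p, with an interaction of -0.93 (SE 0.20, adjusted p = 0.019). Both interactions were lost without either Col replicate, without *brm-1* replicate 2 and without *brm-1 clf-29* replicate 1, and that of AT3G09155 also without *brm-1 clf-29* replicate 2 (adjusted p from 0.052 to 0.10).

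Among lncRNA genes with at least 30 reads in the Col input, the 3 with the highest Col level per kb of counted window were taken from each class. AT3G06325 and AT3G06355 (chromosome 3, 14196558 to 14196865 and 14199575 to 14200076) had 379 and 403 RPM and 387 and 431 RPM in the Col ChIP libraries, but also 469 and 477 RPM in the Col input, and no region was found at them in any genotype. The annotation places ribosomal RNA genes beside and inside this stretch, and reads of near-identical copies may be counted there, so both values are uncertain. AT3G03555 (chromosome 3, 6117576 to 6117982) was marked in every genotype with 104 and 119 RPM in Col over an input of 66.1 RPM. After AT3G06325, the overlapping lncRNA genes with the highest Col level per kb were AT5G01675 and AT4G04235 (chromosome 4, 1178514 to 1178768, minus strand) at the 5′ end of *IDD12*. AT4G04235 had 55.3 and 60.3 RPM in Col over 9.65 in the input. The lncRNA genes of this paragraph were counted in windows of 1000 bp, except AT5G01675, which was counted over its 6230 bp. AT5G09735 (chromosome 5, 26683450 to 26683766, plus strand), 1500 bp from AT5G66816, had 67.3 and 58.6 RPM in Col, 78.4 and 80.8 in *brm-1*, 117 and 125 in *clf-29* and 117 and 119 in *brm-1 clf-29*. Its level in *clf-29* differed from Col by 0.94 (SE 0.11, adjusted p = 3.1e-07), short of 2-fold.

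Of the lncRNAs studied by name in *Arabidopsis* that were looked up, 2 carry the biotype lncRNA in this annotation. AT5G01675 at *FLC* is described above. AT1G69572 (chromosome 1, 26161551 to 26162791, plus strand), antisense to AT1G69570, was in no region. It had 8.21 and 6.29 RPM in Col, 8.90 and 10.9 in *brm-1*, 1.92 and 2.37 in *clf-29* and 5.68 and 5.75 in *brm-1 clf-29*, with inputs of 8.16 to 10.5 RPM. It was lower in *clf-29* than in Col (log2 fold change -1.38, SE 0.35, adjusted p = 0.0026), on 5 unique reads in each *clf-29* library. Of the 1101 tested lncRNA genes in no region, 345 (31.3%) were lower in *clf-29* than in Col. Over all 21725 tested genes in no region the share was higher, at 44.5%. Among the flowering, cold and floral regulators looked up, AT4G07385 (chromosome 4, 13017141 to 13018038, plus strand) overlaps the end of *DREB1A*, a transcription factor gene of the cold response. It was touched by a region only in *clf-29*, with 8.47 and 12.3 RPM there and 12.3 and 6.62 in Col, ranges that overlap.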

How the data were processed

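The authors deposited lists of mapped ChIP-seq and input reads. Per the labels and the study's methods, reads were aligned to the TAIR10 genome with Bowtie 0.12.7, and SICER 1.1 was used to call regions. From these deposited lists, 1 read was kept per position and strand, read starts were shifted by 75 bp, and reads were counted per gene on TAIR10.1, whose chromosome lengths equal those of TAIR10. Depth limits short genes to few reads, and counts carry counting error. RPM has no external standard.

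Regions were rebuilt in Python 3.11.15: enriched windows of 200 bp (Poisson p below 0.2) were merged when at most 600 bp apart, and each merged stretch was compared with the input by an exact binomial test (adjusted p under 0.01). Levels were tested with limma 3.58.1 (R 4.3.3) with trend, on log2(RPM + 1) of 8 ChIP libraries; the script was tested on simulated data. The lncRNA genes described singly included the 3 largest called gains and losses per comparison among those touched by a region of either genotype compared. These needed at least 30 reads in each library of the higher genotype. Both libraries of 1 genotype also had to lie above both of the other. Further ones had the 3 lowest interaction p-values, the 3 highest Col levels per kb in each class (with at least 30 Col input reads), or were on lists of named lncRNAs and regulators. The lncRNA genes, lists and rules were chosen with earlier results of these data known. Alternatives covered scaling, pseudocount, read filter, windows, redundant reads, voom weights, a replicate block and each library left out. Replicate numbers were not used to pair samples.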

Additional observations from a re-analysis of the deposited data

Results flagged for a closer look

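The effect of *brm-1* differed with and without CLF (limma interaction, 2 libraries per genotype) at 7 of the lncRNA genes described. Of all genes tested, 10.2% passed. AT5G01675, AT3G09155 and AT1G08517 were named for their low interaction p-values, so their passing was fixed by that choice. Some others were named for large changes between the same genotypes. The number 7 is therefore a description. The effect was lower without CLF at AT5G01675, at *FLC* (interaction -1.025, adjusted p = 0.0082), at AT1G08517 (-0.9344, adjusted p = 0.019), at AT3G09155, in *SHP1* (-0.8748, adjusted p = 0.012) and at AT2G09605 (-0.5917, adjusted p = 0.046). It was higher without CLF at AT2G24545 (1.578, adjusted p = 0.021), at AT5G06855 (1.489, adjusted p = 0.042) and at AT3G06325, the gene beside ribosomal RNA genes whose reads are below the input (0.7184, adjusted p = 0.049). At some of these genes the estimates with and without CLF had opposite signs, but in each pair at least 1 did not pass the test. These were AT5G01675 with CLF (0.04, adjusted p = 0.81), AT2G09605 without CLF (-0.12, adjusted p = 0.81), AT3G09155 without CLF (-0.32, adjusted p = 0.30), AT2G24545 with CLF (-0.46, adjusted p = 0.13) and AT5G06855 without CLF (0.44, adjusted p = 0.69).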

How the results depend on the processing

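The numbers of lncRNA genes in regions stayed within 1.5 times under every region setting tried, and of the values of single genes 451 kept their direction and their side of the threshold, 26 no longer passed it, 4 newly passed it and 1, which was not a call, changed sign: AT5G01675 in *clf-29* against Col was 0.2976 with median-of-ratios factors. The calls against Col moved with scaling. The alternatives for lncRNA genes in regions were chosen after seeing the data. The cause was not tested for any of these moves.

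For all lncRNA genes tested, median-of-ratios factors gave 869 higher and 31 lower in *brm-1* against Col, 427 and 104 in *clf-29* against Col, 1 lower in the double mutant against *clf-29* and 635 interactions. TMM gave 9 higher in *brm-1*, 18 higher and 811 lower in *clf-29*, 5 lower in the double mutant against *clf-29* and 129 interactions. Gene bodies without widening gave 121 lower in *brm-1*, 260 lower in *clf-29*, 171 lower in the double mutant against *brm-1*, 8 higher and 1 lower against *clf-29* and 34 interactions. A pseudocount of 4 RPM gave 7 higher and 37 lower in *brm-1*, 158 lower in *clf-29*, 11 higher and 175 lower in the double mutant against *brm-1*, 0 lower against *clf-29* (limma, 0 at an unadjusted p under 0.05) and 171 interactions. A pseudocount of 0.25 RPM gave 1 lower in the double mutant against *clf-29* and 20 interactions. No read filter gave 523 lower in *brm-1*. Redundant reads gave 6 lower in the double mutant against *clf-29* and 51 interactions, and that loss count was 1 with voom weights and 1 with only the 2 genotypes compared.

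For lncRNA genes in regions, median-of-ratios factors gave 737 higher and 1 lower in *brm-1*, 373 and 44 in *clf-29*, 0 lower in the double mutant against *clf-29* and 586 interactions. TMM gave 8 and 5 in *brm-1*, 18 higher in *clf-29*, 4 lower against *clf-29* and 16 interactions. A pseudocount of 4 RPM gave 7 and 1 in *brm-1*, 11 higher in the double mutant against *brm-1*, 0 lower against *clf-29* and 70 interactions, and one of 0.25 RPM gave 13 interactions. Gene bodies gave 7 higher against *clf-29* and 16 interactions, and redundant reads gave 4 lower against *clf-29* and 20 interactions.

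With the replicate block, 6 lncRNA genes were lower in the double mutant against *clf-29* (3 in regions) and 191 interactions passed (103 in regions), while the other counts stayed within 1.5 times. Deviations of same-numbered libraries correlated at -0.012 to 0.11, so the numbers are not taken to pair the samples.

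Leaving out 1 library gave, for all lncRNA genes tested, 10 to 31 higher and 54 to 291 lower in *brm-1*, 79 to 106 and 290 to 537 in *clf-29*, 23 to 62 and 217 to 299 in the double mutant against *brm-1*, 2 to 18 and 0 to 4 against *clf-29*, and 0 to 183 interactions. In regions the ranges were 10 to 26 and 2 to 7, 75 to 95 and 154 to 180, 22 to 38 and 173 to 207, 2 to 13 and 0 to 4, and 0 to 69. The remaining library of that genotype was assumed to vary like the others.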
